A study of Homo sapiens with 4 samples.

Results

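The RB and E2F regulators described here are 10 genes of the count table that control entry into and exit from the cell cycle, namely *RB1*, *RBL1*, *RBL2*, *E2F1*, *E2F2*, *E2F3*, *E2F4*, *E2F7*, *E2F8*, and *FOXM1*. They were taken as a named list from 18449 gene symbols, and all 10 were measured in each of the 4 libraries. The libraries came from BT-16 and CHLA-266, established cell lines of the MYC subtype of atypical teratoid/rhabdoid tumor (AT/RT-MYC), a malignant brain tumor of early childhood. Each cell line gave 1 untreated library and 1 library of cells exposed to 1 µM doxorubicin, 5 µM etoposide, and 1 µM vincristine, given on consecutive days and followed by regrowth of the surviving cells. Doxorubicin and etoposide block topoisomerase II, and vincristine blocks microtubule assembly. Treated libraries therefore hold cells that outlived the drugs or descend from such cells, and the 2 libraries of a condition differ by cell line, so that *p* values measure the spread between these cell lines and not between repeated cultures.

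The retinoblastoma protein, encoded by *RB1*, and its relatives p107 (*RBL1*) and p130 (*RBL2*) are pocket proteins that bind E2F transcription factors and hold their target genes silent until cyclin-dependent kinases phosphorylate them. *E2F1*, *E2F2*, and *E2F3* encode the activator E2Fs, which drive genes of DNA replication, and *FOXM1* encodes a forkhead factor that drives genes of mitosis. *E2F7* and *E2F8* encode atypical E2Fs that repress E2F targets in proliferating cells, where p107 is also made, whereas E2F4 and p130 form the repressor complexes that are best known from quiescent cells.

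Many genes of this network are themselves E2F targets, so the sequence upstream of the members is shown first. RefSeq promoters (GRCh38.p14, 250 bases before to 50 after a start site) were listed for 8 of the 10 members, all except *E2F8* and *FOXM1*. The last 120 bases before the start are printed 5′ to 3′ in the direction of transcription for members that contrast in what follows, and capitals mark the 8-letter E2F motif, searched as TTTCCCGC, TTTCGCGC, TTTGCCGC, or TTTGGCGC on both strands.
*E2F1*, chr20:33686386-33686505, minus strand: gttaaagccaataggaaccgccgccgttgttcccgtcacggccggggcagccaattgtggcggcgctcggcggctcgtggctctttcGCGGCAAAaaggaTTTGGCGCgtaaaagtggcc
*E2F2*, chr1:23531234-23531353, minus strand: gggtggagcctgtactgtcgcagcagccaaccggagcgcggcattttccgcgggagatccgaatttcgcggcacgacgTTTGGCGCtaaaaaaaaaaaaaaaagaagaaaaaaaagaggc
*E2F3*, first listed start, chr6:20401759-20401878, plus strand: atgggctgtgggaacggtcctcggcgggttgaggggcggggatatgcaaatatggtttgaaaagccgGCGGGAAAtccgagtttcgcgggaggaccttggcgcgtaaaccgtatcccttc
*RBL1*, chr20:37095998-37096117, minus strand: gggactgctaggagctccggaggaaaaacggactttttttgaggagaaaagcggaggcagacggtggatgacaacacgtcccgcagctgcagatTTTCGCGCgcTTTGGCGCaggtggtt
*E2F7*, chr12:77065570-77065689, minus strand: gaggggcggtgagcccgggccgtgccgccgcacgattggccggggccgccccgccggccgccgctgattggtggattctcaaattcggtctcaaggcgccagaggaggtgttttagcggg
*RBL2*, first listed start, chr16:53434351-53434470, plus strand: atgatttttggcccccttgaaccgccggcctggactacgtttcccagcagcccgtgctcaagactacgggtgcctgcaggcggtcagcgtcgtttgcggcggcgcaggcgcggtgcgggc
*E2F4*, chr16:67192035-67192154, plus strand: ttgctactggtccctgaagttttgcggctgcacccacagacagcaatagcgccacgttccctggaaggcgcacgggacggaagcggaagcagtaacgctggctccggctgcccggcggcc

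The motif was found in 4 of the 8 members with a promoter listed, compared with 5.50% of the 14642 genes of the count table that had one and 3.31% of all 35116 promoters of the same length. *E2F1* and *RBL1* each held 2 copies, and *E2F2* and the first start of *E2F3* held 1 copy each. The letters were not found in the windows of *RBL2*, *E2F4*, *E2F7*, or the second start of *E2F3*. They were also not found for *RB1*, whose listed start lies inside the annotated gene. A match is a description of these letters and not of binding.

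The libraries held 49849258 to 75087194 counts, and the treated libraries were the shallower ones in both cell lines. Counts of the 380 olfactory receptor genes, which such cells should not use, were taken as a background level per kilobase. This background was higher after treatment, with a 95th percentile of 26.3 and 21.2 counts per kilobase in treated BT-16 and CHLA-266 cells and of 4.11 and 3.81 in untreated cells. The 10 members lay above it in both untreated libraries and 9 lay above it in both treated libraries, the exception being *E2F8*. *SMARCB1*, the gene whose loss defines most AT/RT, had 1394 and 1313 counts in the untreated and 981 and 827 in the treated libraries, so its loss was not visible in the gene counts. *SMARCA4*, *MYC*, and *VIM* were counted in every library. By the edgeR test used below, *SMARCA4* (log2 fold change -0.56, adjusted *p* = 0.0498) and *MYC* (-0.59, adjusted *p* = 0.0289) were lower after treatment. *VIM* was at 0.04 (adjusted *p* = 0.920). In bulk RNA, fewer cells that use a gene and less RNA of that gene per cell cannot be told apart.

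By edgeR (quasi-likelihood test, *p* values adjusted by Benjamini-Hochberg), 9 of the 10 members were downregulated after treatment and 0 were upregulated at an adjusted *p* value under 0.05. Among all 18066 genes tested, 19.1% (3454 genes) were lower and 16.1% (2910 genes) were higher, a balance that turned to 1895 lower and 4361 higher with upper-quartile scaling and to 2353 lower and 3678 higher with library totals. At an unadjusted *p* value under 0.05, and in DESeq2 with or without the cell line as a block and limma, the count was likewise 9 lower and 0 higher. For all 10 members, both treated libraries lay below both untreated libraries in counts scaled to library size (CPM, after TMM scaling), which held for 32.3% of all genes. The size of the change split the members into 6 with a log2 fold change below -2 (*FOXM1*, *E2F8*, *E2F1*, *E2F7*, *RBL1*, and *E2F2*) and 4 between -1 and 0 (*E2F4*, *RBL2*, *RB1*, and *E2F3*). For the 6, the share of all genes tested with a lower log2 fold change ran from 0.531% (*FOXM1*) to 3.18% (*E2F2*). For the 4, it ran from 17.4% (*E2F4*) to 32.0% (*E2F3*). The median log2 fold change of all genes was 0.24 with TMM scaling. It ranged from 0.0052 with only genes of at least 10 counts in every library to 0.59 with upper-quartile scaling.

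**Figure D1:**
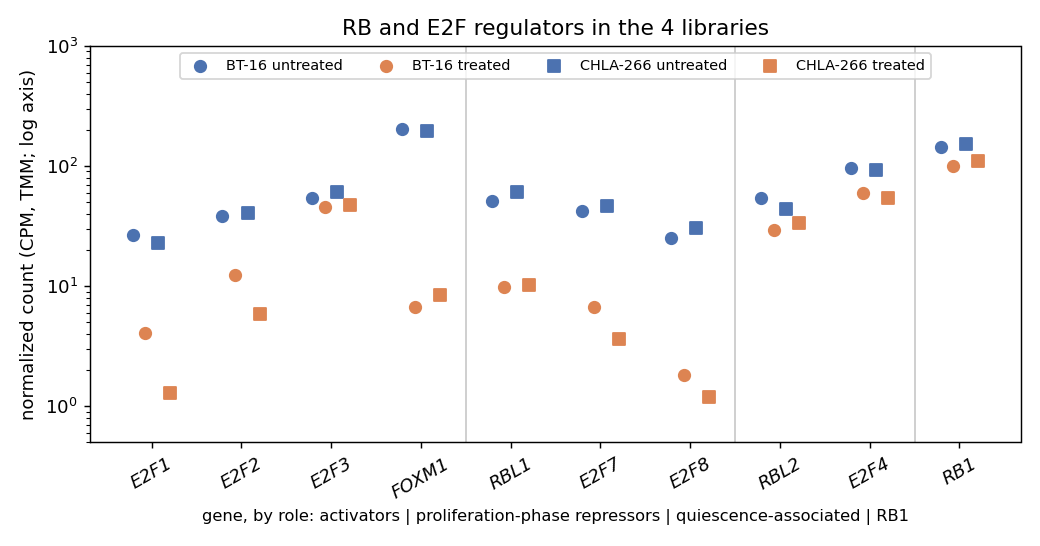
Normalized counts (CPM after TMM scaling, log axis) of the 10 members in the 4 libraries, with circles for BT-16, squares for CHLA-266, blue for untreated, and orange for treated cells, grouped by role. *E2F1* in treated CHLA-266 cells stood at 1.29 CPM against 22.8 before treatment, whereas *RB1* stood at 111 against 151.

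Among the activators, *FOXM1* (chr12:2857680-2877174, minus strand, hg38) was the most strongly changed. It had 13898 and 12042 counts in untreated BT-16 and CHLA-266 cells and 389 and 435 in treated cells, or 201 and 196 against 6.73 and 8.37 CPM. The treated libraries were both far below the untreated ones, and the cell lines lay close together in either condition. The log2 fold change was -4.72 (SE 0.20, adjusted *p* = 1.92e-06 in edgeR), that is, 26.3-fold lower. By abundance, *FOXM1* ranked 987 and 996 from the top among all genes in untreated BT-16 and CHLA-266 cells and 9265 and 8718 in treated cells. Its exons share 782 bases with *ITFG2* on the opposite strand, and the strand setting of the counting is not given in the sources used here. *ITFG2* itself had a log2 fold change of -0.05 (adjusted *p* = 0.859).

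*E2F1*, the activator E2F whose promoter carries 2 copies of the motif above, had 1835 and 1406 counts in untreated and 234 and 67 in treated BT-16 and CHLA-266 cells. This was 26.6 and 22.8 against 4.05 and 1.29 CPM, with the lowest value in treated CHLA-266 cells. The change of *E2F1* on the log2 scale was -3.21 (SE 0.48, adjusted *p* = 0.00159), with the largest standard error of the 10 members. It depended on the treated library used and was -4.26 without treated BT-16 and -2.60 without treated CHLA-266 cells. In treated CHLA-266 cells, *E2F1* lay 1.17 times above the olfactory receptor background.

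*E2F2*, which acts beside *E2F1* on replication genes, was lower in a similar way, with 38.0 and 41.0 CPM in untreated and 12.3 and 5.85 CPM in treated BT-16 and CHLA-266 cells. Its counts were 2618 and 2522 before and 712 and 304 after treatment. The groups did not overlap, and the treated libraries differed more from each other than the untreated ones. This gave a log2 fold change of -2.12 (SE 0.33, adjusted *p* = 0.00192), and -2.75 without treated BT-16 and -1.67 without treated CHLA-266 cells.

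*E2F3*, the remaining activator E2F, was the only member that did not pass the threshold. Its counts of 3713 and 3706 in untreated and 2621 and 2457 in treated BT-16 and CHLA-266 cells gave 53.8 and 60.2 against 45.3 and 47.3 CPM. The treated libraries were below the untreated ones by a small margin, with a log2 fold change of -0.30 (SE 0.16, adjusted *p* = 0.172 in edgeR). Its sign turned with upper-quartile scaling, which gave 0.046. Relative to the median of all genes, *E2F3* was at -0.54 under both scalings. Scaling moves all genes by nearly the same amount, so this agreement is built in and is no test. When genes under 10 counts in any library were dropped, *E2F3* was at -0.12 relative to the median. Pseudogenes of *E2F3* and *E2F4* are annotated, and how reads shared with them were assigned is not given in the sources used here. The log2 fold change of *E2F1* was 2.91 further down than that of *E2F3*. The E2F motif was found for *E2F1* and for the first listed start of *E2F3*, but not for its second start. Which start was used, and any part of the motif in the change, was not tested.

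Within the activator E2F family, the composition shifted accordingly. Of the counts per kilobase of exon of *E2F1*, *E2F2*, and *E2F3* together, *E2F3* took 38.1% and 42.0% in untreated and 69.9% and 85.5% in treated BT-16 and CHLA-266 cells. *E2F1* took 36.3% and 30.8% before and 12.0% and 4.50% after treatment. These shares are ratios within a library and do not depend on the scaling between libraries. With 2 against 2 libraries, an exact two-sided permutation test cannot give a *p* value below 0.333, so no test of the shares was made.

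**Figure D2:**
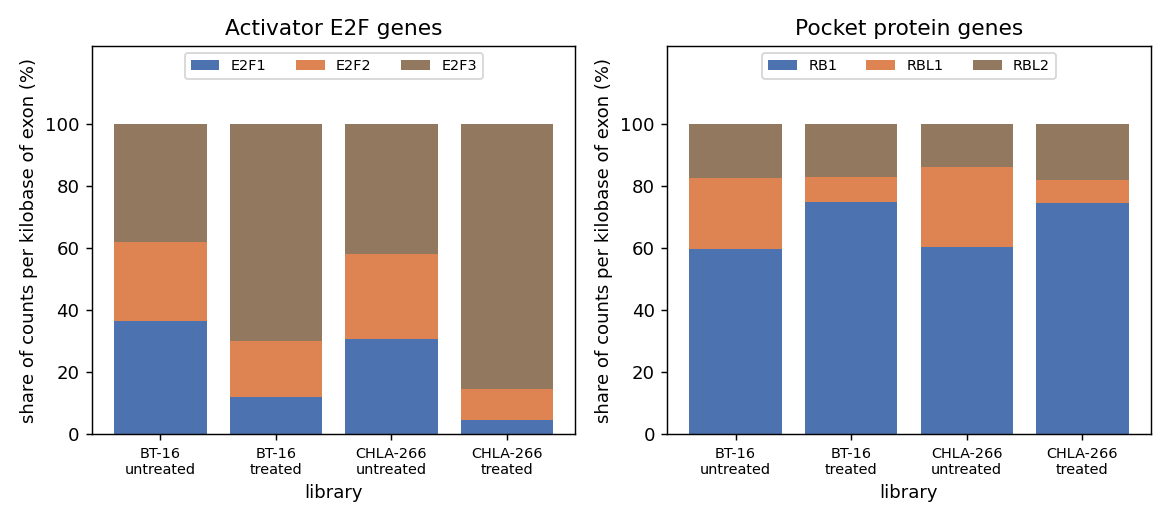
Share of counts per kilobase of exon (%) within the activator E2F genes (left) and within the pocket protein genes (right), with 1 stacked bar for each library. *E2F3* held 69.9% and 85.5% of the activator E2F counts in the treated libraries, and *RB1* held 74.7% and 74.5% of the pocket protein counts.

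The repressors of proliferating cells were lower as well. *E2F8* (chr11:19224063-19241620, minus strand, hg38), an atypical E2F that represses E2F targets without a DP partner, had 1734 and 1861 counts in untreated and 105 and 62 in treated BT-16 and CHLA-266 cells, or 25.1 and 30.2 against 1.82 and 1.19 CPM. It was 18.3-fold lower after treatment (log2 fold change -4.20, SE 0.31, adjusted *p* = 3.34e-05). In treated BT-16 and CHLA-266 cells, *E2F8* was at 0.966 and 0.706 times the 95th percentile of the olfactory receptors, a level at which its counts could not be told from background. With the median density of the olfactory receptors subtracted, the log2 fold change was -4.40. That median was 4.07 and 1.28 counts per kilobase in treated BT-16 and CHLA-266 cells, far below the 95th percentile. The subtraction therefore does not show that *E2F8* stood above background in treated cells.

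*E2F7*, the second atypical E2F, had 2895 and 2883 counts in untreated and 387 and 188 in treated BT-16 and CHLA-266 cells, or 42.0 and 46.8 against 6.69 and 3.62 CPM. The untreated libraries lay close together, and treated CHLA-266 cells were the lowest. The log2 fold change was -3.10 (SE 0.30, adjusted *p* = 0.000184), and -3.62 without treated BT-16 and -2.72 without treated CHLA-266 cells.

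*RBL1*, the gene of p107, had 3499 and 3702 counts in untreated and 566 and 535 in treated BT-16 and CHLA-266 cells. The corresponding values of 50.7 and 60.1 against 9.79 and 10.3 CPM showed close agreement between the cell lines in the treated state. It was 5.52-fold lower after treatment (log2 fold change -2.46, SE 0.19, adjusted *p* = 4.84e-05).

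The members associated with quiescence were also lower, but by far less. *E2F4*, the main E2F of repressor complexes, had 6675 and 5691 counts in untreated and 3425 and 2837 in treated BT-16 and CHLA-266 cells, or 96.8 and 92.4 against 59.2 and 54.6 CPM. A log2 fold change of -0.73 (SE 0.15, adjusted *p* = 0.00790) was found, that is, 1.66-fold lower. The call held in 12 of 13 alternatives and was lost with upper-quartile scaling.

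*RBL2*, the gene of p130, had 3710 and 2686 counts in untreated and 1682 and 1755 in treated BT-16 and CHLA-266 cells. This gave 53.8 and 43.6 against 29.1 and 33.8 CPM, with no overlap, and the gap between the conditions was wider in BT-16. The log2 fold change was -0.63 (SE 0.19, adjusted *p* = 0.0297), and the call held in 8 of 13 alternatives. The exons of *RBL2* share 609 bases with *AKTIP* on the opposite strand, which had a log2 fold change of 0.32 (adjusted *p* = 0.195).

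*RB1* (chr13:48303744-48599436, plus strand, hg38), the founding pocket protein gene, had 9959 and 9304 counts in untreated and 5754 and 5744 in treated BT-16 and CHLA-266 cells, or 144 and 151 against 99.5 and 111 CPM. Its log2 fold change of -0.49 (SE 0.16, adjusted *p* = 0.0391) passed the threshold in edgeR but held in only 5 of 13 alternatives, and it was lost when any of the 4 libraries was left out. Relative to the median of all genes, *RB1* was at -0.73 with TMM and with upper-quartile scaling, an agreement built into the method. It was at -0.32 when genes under 10 counts in any library were dropped.

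**Figure D3:**
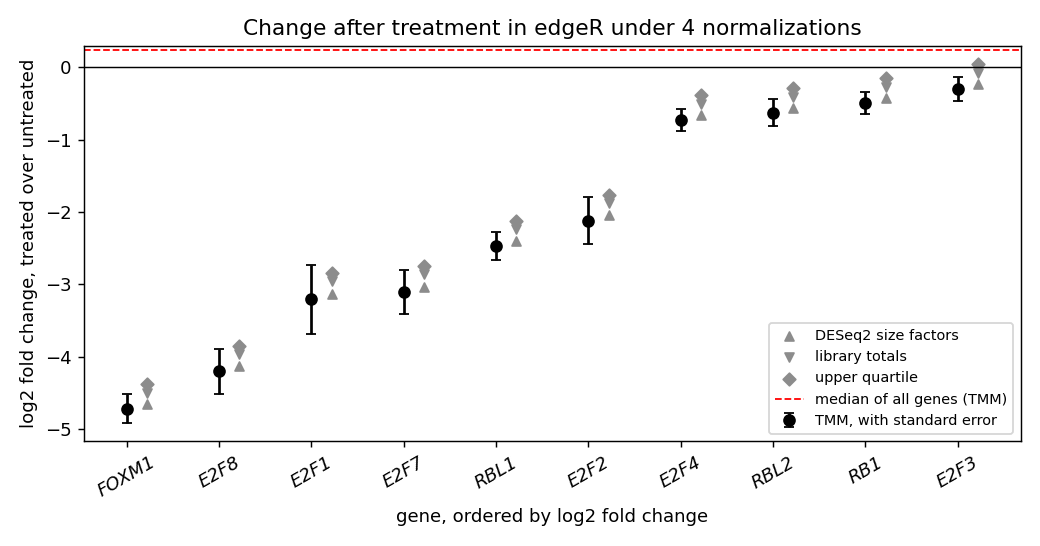
Log2 fold change (treated over untreated) of each member in edgeR with TMM scaling (black, bars are SE) and with 3 other scalings (gray), and the median of all genes (dashed). From *FOXM1* at -4.72 to *E2F2* at -2.12 the points stay far from 0 under each scaling, whereas *E2F3* lies at -0.30 and reaches 0.046 with upper-quartile scaling.

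Ratios between members within a library put the activator, repressor, and quiescence genes side by side. Per kilobase of exon, *E2F1* reached 0.367 and 0.330 times the level of *E2F4* in untreated BT-16 and CHLA-266 cells and 0.0913 and 0.0316 times in treated cells. *RBL1* was more abundant than *RBL2* before treatment, with ratios of 1.28 and 1.88, and less abundant after it, with 0.458 and 0.415. Per kilobase of exon, the order of these pocket protein genes was thus inverted in both cell lines. In BT-16 this depended on the exon lengths used. Without division by length, *RBL1* was already below *RBL2* in untreated BT-16 cells, at 50.7 against 53.8 CPM. In untreated CHLA-266 cells it was above, at 60.1 against 43.6 CPM. *FOXM1* was 6.18 and 7.39 times as abundant as *RBL2* in untreated cells and 0.381 and 0.409 times as abundant in treated cells. The atypical repressors were reduced more than the sum of the activator E2Fs, since the ratio of *E2F7* plus *E2F8* to *E2F1* plus *E2F2* plus *E2F3* went from 0.469 and 0.535 to 0.120 and 0.0810. This last ratio rests largely on *E2F3*, which had most of the activator E2F counts in the treated libraries.

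The order of the members by level was rearranged. Mean normalized counts per kilobase of exon in untreated cells were 40.4 CPM per kilobase for *FOXM1*, 26.3 for *E2F4*, 23.0 for *RB1*, and 11.0 for *E2F3*. Then followed *RBL1* (9.31), *E2F1* (9.19), *E2F2* (7.22), *E2F7* (7.06), *E2F8* (6.70), and *RBL2* (6.01), of which *RBL1* and *E2F1* overlapped each other, as did each neighboring pair from *E2F2* to *RBL2*. In treated cells, *RB1* (16.3 CPM per kilobase) and *E2F4* (15.8) led with overlapping libraries, followed by *E2F3* (8.92) and *RBL2* (3.88), each set apart from the next gene. *RBL1* (1.69), *E2F2* (1.66), *FOXM1* (1.53), *E2F1* (0.992), and *E2F7* (0.820) overlapped from neighbor to neighbor, and *E2F8* was last at 0.364. In single libraries, *FOXM1* took place 1 in both untreated libraries and places 8 and 6 in treated BT-16 and CHLA-266 cells. *RBL2* took places 9 and 10 before and place 4 in both cell lines after treatment, while its own level was lower.

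With TMM scaling, the cell lines moved the same way for all 10 members but not to the same extent. Within BT-16 and CHLA-266, the log2 ratio of treated to untreated normalized counts of *E2F1* was -2.71 (95% counting interval -2.92 to -2.52) and -4.14 (-4.52 to -3.79). *E2F2* was at -1.62 and -2.81, and *E2F7* at -2.65 and -3.69, again lower in CHLA-266. *RBL2* showed the opposite order, with -0.89 in BT-16 and -0.37 in CHLA-266. The intervals did not overlap for 6 members, namely these 4, *FOXM1* (-4.90 and -4.54), and *E2F8* (-3.78 and -4.65). The share of all genes whose intervals did not overlap was not computed, so this count cannot be called particular to the members.

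The intervals are exact Clopper-Pearson intervals, leave out all error but that of counting, and understate it if read pairs were counted as 2 reads. Low nonzero counts were mostly even. In BT-16 and CHLA-266, 34.2% and 26.5% of them were odd in untreated and 21.6% and 20.5% in treated cells. Whether pairs were counted as 2 reads was not tested. With all counts halved, the intervals of *E2F1*, *E2F2*, *E2F7*, and *RBL2* still did not overlap, again without a share over all genes to compare. The 2 cell lines were close for *RBL1* (-2.37 and -2.55), *E2F4* (-0.71 and -0.76), *RB1* (-0.54 and -0.45), and *E2F3* (-0.25 and -0.35). For *E2F3*, the shared direction depended on the scaling. Its log2 ratio in BT-16 and CHLA-266 was 0.15 and -0.052 with upper-quartile scaling, and 0.042 and -0.18 with library totals. With 1 library per cell line and condition, the difference between the cell lines could not be tested.

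**Figure D4:**
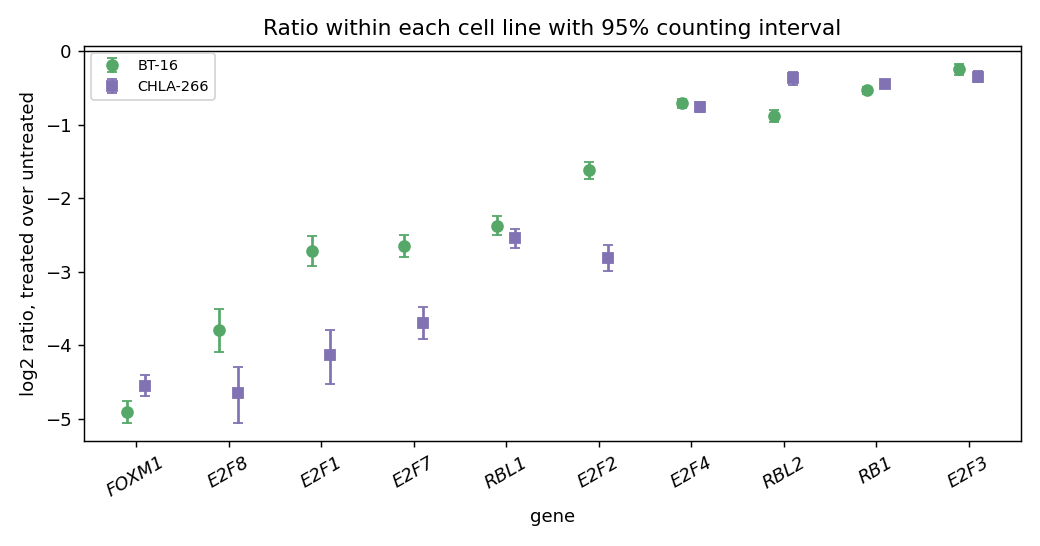
Log2 ratio of treated to untreated normalized counts within BT-16 (green circles) and CHLA-266 (violet squares) for each member, with 95% counting intervals. *E2F1*, *E2F2*, and *E2F7* lie lower in CHLA-266 and *RBL2* lies lower in BT-16, while *RBL1*, *E2F4*, *RB1*, and *E2F3* nearly coincide.

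Among the other E2F and DP genes, 1 of 4 was downregulated and 0 were upregulated, with a median log2 fold change of -0.46. The 25% called lower was near the 19.1% over all genes tested, of which 16.1% were higher. *TFDP1*, which encodes the DP1 partner that E2Fs other than the atypical ones need to bind DNA, had 20440 and 17964 counts in untreated and 3453 and 4054 in treated BT-16 and CHLA-266 cells (log2 fold change -2.09, SE 0.19, adjusted *p* = 0.000105). Its relative *TFDP2* was at 0.04 (adjusted *p* = 0.851). The repressor *E2F6* was at -0.25 (adjusted *p* = 0.465). *E2F5*, the closest relative of *E2F4*, was at -0.68 with an adjusted *p* value of 0.0621, which became 0.0199 once the cell line entered edgeR as a block. At an unadjusted *p* value under 0.05, 2 of these genes were lower and 0 higher, and DESeq2 without a block gave 1 and 0.

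Of 8 genes of the MuvB core with its partners and regulator, 5 were downregulated and 0 upregulated, against 19.1% and 16.1% of all genes. The median log2 fold change was -0.70. The same counts were obtained at an unadjusted *p* value under 0.05 and in DESeq2 without a block. The MuvB core joins p130 and E2F4 in the DREAM complex of quiescent cells and joins B-MYB and FOXM1 in cycling cells. *MYBL2*, the gene of B-MYB, was lower by the largest margin, with 13162 and 13397 counts before and 159 and 276 after treatment (log2 fold change -5.67, SE 0.32, adjusted *p* = 7.20e-06). *MYBL1* (-1.79) and the core genes *LIN9* (-2.55), *RBBP4* (-0.76), and *LIN54* (-0.57) were also lower. *RBBP4* was the most abundant gene of the list, and *LIN54* passed in 7 of 13 alternatives. *LIN37* (-0.51, adjusted *p* = 0.455) and *DYRK1A* (0.04, adjusted *p* = 0.857), the kinase that promotes DREAM assembly, did not pass. *LIN52*, the subunit that DYRK1A phosphorylates, was at -0.65 with an adjusted *p* value of 0.106, and of 0.0223 with the block.

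The kinases and cyclins that phosphorylate the pocket proteins were divided, with 4 of 8 lower, 2 higher, and a median of -0.71. Shares over all genes were 19.1% lower and 16.1% higher. The genes of the S phase kinase *CDK2* (-3.86, adjusted *p* = 4.82e-05) and its cyclins *CCNE2* (-3.30) and *CCNE1* (-1.51) were downregulated, as was *CDK6* (-0.91), the most abundant gene of the list. *CCND1*, the gene of cyclin D1, was upregulated from 8479 and 8235 counts to 12374 and 17885 (log2 fold change 1.12, SE 0.23, adjusted *p* = 0.00698). *CCND2* was called higher at 4.72 on the log2 scale, but from 4 counts in each untreated library to 66 and 114 in the treated libraries. It lay below the olfactory receptor background in each of the 4 libraries, at 0.314 and 0.672 times that level in treated BT-16 and CHLA-266 cells. Without treated CHLA-266 cells the estimate was 4.18 and the call was lost (adjusted *p* = 0.0565). *CDK4* (-0.37, adjusted *p* = 0.152) and *CCND3* (-0.52, adjusted *p* = 0.103) did not pass, although *CCND3* passed with the block (adjusted *p* = 0.00525).

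Of the 7 inhibitors of these kinases, 2 were upregulated and 3 downregulated (16.1% and 19.1% of all genes), with a median of 0.78. *CDKN1A*, which encodes the p53 target p21, had 8181 and 6485 counts in untreated and 25541 and 19760 in treated BT-16 and CHLA-266 cells (log2 fold change 1.88, SE 0.17, adjusted *p* = 0.000136), and it was the most abundant of the list. *CDKN2B*, the gene of p15, went from 594 and 651 to 1810 and 2502 counts (2.05, adjusted *p* = 0.000707). *CDKN2A* (-1.11), *CDKN2C* (-0.94), and *CDKN1B* (-0.55, adjusted *p* = 0.0461) were lower, the last of these in only 4 of 13 alternatives. *CDKN1C* (1.50, adjusted *p* = 0.0766) and *CDKN2D* (0.78, adjusted *p* = 0.0821) did not pass. They passed in 4 and 6 of 13 alternatives, *CDKN2D* among others with the block (adjusted *p* = 0.0444), and *CDKN1C* was at 0.80 without treated BT-16 and at 1.98 without treated CHLA-266 cells.

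Among 6 corepressor genes that were tested, 3 were lower and 1 was higher, with a median of -0.37. The 16.7% called higher was near the 16.1% over all genes, of which 19.1% were lower. The histone deacetylase genes *HDAC2* (-0.99), the most abundant, and *HDAC1* (-0.64, past the threshold in 8 of 13 alternatives) and the scaffold gene *SIN3A* (-0.95) were downregulated. *SIN3B*, a paralog of *SIN3A*, was upregulated from 6632 and 6107 to 10860 and 12977 counts (1.16, SE 0.18, adjusted *p* = 0.00211). The paralogs thus moved in opposite directions. *KDM5A* (0.06, adjusted *p* = 0.769) and *ARID4A* (-0.10, adjusted *p* = 0.629) did not pass.

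The targets moved together. All 21 of the E2F targets of the G1/S transition that were tested were downregulated and 0 were upregulated. Over all genes, 19.1% were lower and 16.1% higher. The median log2 fold change of these targets was -3.33. The count was 21 and 0 as well at an unadjusted *p* value under 0.05 and in DESeq2 without a block. *RRM2*, which encodes a subunit of ribonucleotide reductase, was both the most abundant and the most strongly changed of them, with 32304 and 33653 counts before and 651 and 546 after treatment (log2 fold change -5.54, SE 0.20, adjusted *p* = 1.92e-06). Of the 24 FOXM1 and MuvB targets of the G2/M transition, 23 were downregulated and 1 was upregulated, with a median of -4.94. *KIF20A*, a mitotic kinesin gene, was lower by the largest margin (-5.64, adjusted *p* = 1.92e-06), and *CENPF*, a kinetochore gene, was the most abundant (79485 and 92704 counts before, 1932 and 2188 after treatment, log2 fold change -5.14). The exception was *CDC25B*, a phosphatase gene of mitotic entry, with 15064 and 10366 counts before and 19595 and 18024 after treatment (0.83, SE 0.18, adjusted *p* = 0.00903), a call that was lost without untreated CHLA-266 cells (0.65, adjusted *p* = 0.0689).

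**Figure D5:**
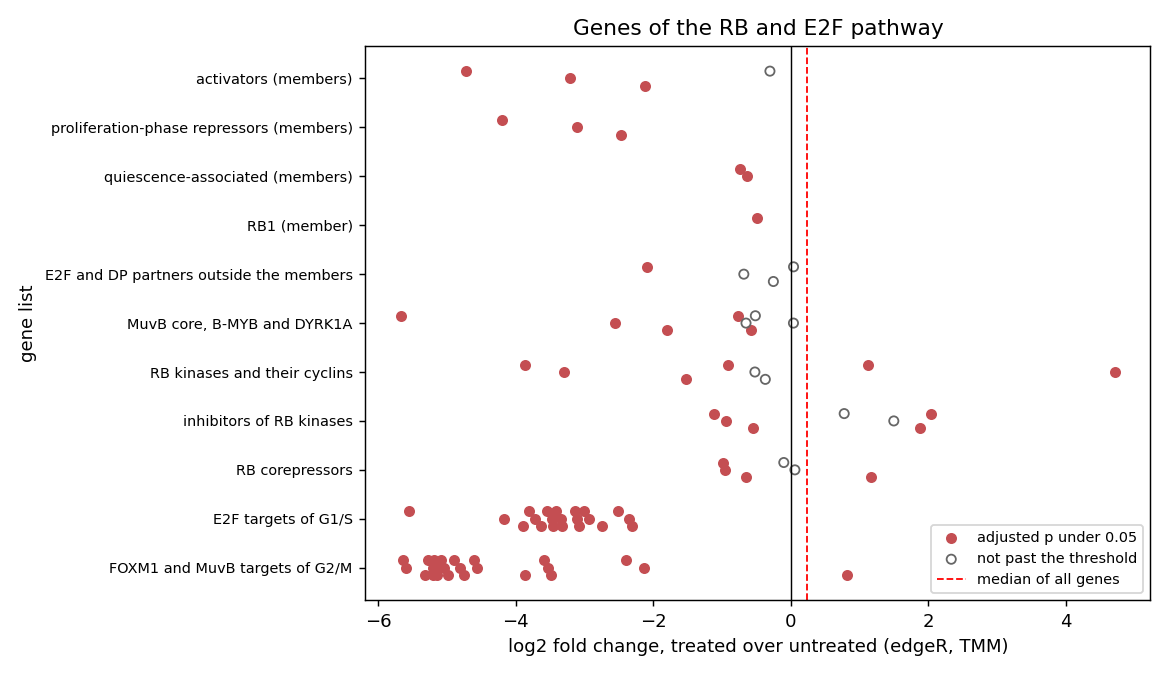
Log2 fold change (treated over untreated) of each gene of the members' roles and of the pathway lists, filled where the adjusted *p* value is under 0.05, with 0 (solid line) and the median of all genes (dashed line). The 21 G1/S targets lie from -5.54 to -2.30, and the 24 G2/M targets lie below 0 except *CDC25B* at 0.83.

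Marker genes of other cell types had low levels in all libraries, and some endothelial and fibroblast markers were called higher after treatment. The summed level of 5 endothelial markers was 0.957 and 0.812 CPM in untreated and 10.7 and 7.93 CPM in treated BT-16 and CHLA-266 cells, and 3 of the 5 were called higher. For 5 fibroblast markers, the sums were 8.10 and 3.33 before and 17.6 and 10.4 CPM after treatment, with 2 called higher. Over all genes tested, 16.1% were called higher. Of 5 immune markers, 0 were called in edgeR and in DESeq2 and 1 was higher at an unadjusted *p* value under 0.05, with sums of 0.569 to 4.57 CPM. *CD3E*, a defining gene of T cells, was at 0 in every library but treated BT-16. At most 2 markers of any of these lists exceeded the olfactory receptor background in any library. Their part in the results was not tested.

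The genes most like 3 of the members were sought by the Euclidean distance of log2 CPM over the 4 libraries, after each gene's own mean was subtracted, among 14008 genes with at least 100 counts. *E2F1* was nearest to *FN3KRP* (distance 0.255), *KIFC1* (0.285), and *RAC3* (0.300), which shared its low value in treated CHLA-266 cells. *E2F8* was nearest to *CENPK* (0.104), *MAD2L1* (0.161), and *MELK* (0.167), which have roles in mitosis or are made in dividing cells. *RBL2* was nearest to *WWP2* (0.0340), *PDLIM7* (0.0390), and *FPGS* (0.0413), all at a log2 fold change near its own. The shared values and fold changes follow from the distance by which these genes were chosen. With 4 libraries, such a likeness is a description only.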

How the data were processed

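RNA of 4 libraries was sequenced (SMART-Seq Stranded kit, 10 ng of RNA as input). The submitters' processing notes name bcl2fastq 2.20, STAR, and hg38. The deposited estimated counts per gene symbol are not normalized, and the 5 fractional values (in 2 genes) were rounded. The deposited log2 values are DESeq2 variance-stabilized counts of 17553 genes and were used only in limma. How read pairs were counted is not given in the sources used here. Columns of the authors' comparisons, where present, were not used. The 10 members and the gene lists were chosen with earlier results of these data known.

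Of 18449 symbols, 383 with a total of 0 were left out. Treated and untreated libraries were compared in edgeR 4.0.16 (R 4.3.3, quasi-likelihood test, TMM, Benjamini-Hochberg adjustment over 18066 genes, threshold 0.05) without a cell line term. Alternatives were the cell line as a replicate block, DESeq2 1.42.0 with and without it, 3 other scalings, 2 filters (one of them at least 10 counts throughout), limma 3.58.1, and each library left out in turn. Subtraction of the olfactory receptor density was added after seeing the data. The labels pair the libraries by cell line, and their deviations from the condition means correlated at 0.257 across 12620 genes, which are not independent. Exon lengths come from GENCODE 44 (hg38, 18357 symbols matched) and merge the exons of all annotated transcripts of a gene. Ratios within a cell line had 0.5 counts added. The quasi-likelihood test gives no standard error. Each SE printed with an edgeR result was back-calculated as the absolute log2 fold change divided by the square root of the F statistic. Named genes were all members, all genes of lists of up to 10 genes, the extreme and most abundant genes of longer lists, and 3 neighbors each of *E2F1*, *E2F8*, and *RBL2*.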

Additional observations from a re-analysis of the deposited data

Results flagged for a closer look

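For 4 pathway genes, the treated library was below the untreated one in BT-16 and above it in CHLA-266. The log2 ratios in BT-16 and CHLA-266 were -0.050 and 0.12 for *DYRK1A*, -0.046 and 0.17 for *KDM5A*, -0.14 and 0.24 for *TFDP2*, and -0.62 and 0.020 for *E2F6*. With 1 library per cell line and condition, these differences were not tested. The counting interval of *E2F6* in CHLA-266 included 0 (-0.08 to 0.12). With halved counts, the BT-16 intervals of *DYRK1A* and *KDM5A* included 0 and that of *TFDP2* did not. With upper-quartile scaling the ratios of *DYRK1A*, *KDM5A*, and *TFDP2* were above 0 in both cell lines, for *TFDP2* at 0.25 and 0.54, whereas *E2F6* was at -0.22 and 0.32. None of the 10 members moved in opposite directions in the cell lines with TMM scaling.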

How the results depend on the processing

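*E2F1*, *E2F2*, *E2F7*, *E2F8*, *FOXM1*, and *RBL1* stayed lower and past the threshold in 13 of 13 alternatives. Upper-quartile scaling reduced the genes called lower to 1895 (4361 higher), turned *E2F3* to 0.046, and took the call from *E2F4* (-0.38), *RBL2* (-0.28), and *RB1* (-0.15). Library totals took it from *RBL2* (-0.41) and *RB1* (-0.27), at least 10 counts in every library from *RBL2* (-0.45) and *RB1* (-0.31), and DESeq2 size factors from *RB1* (-0.43). With 1 library left out, 7 to 8 members were called lower, *RB1* ranged from -0.56 to -0.42, and *RBL2* from -0.77 to -0.47, losing its call without untreated (-0.47) or treated (-0.53) BT-16 cells.

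With the cell line as a replicate block, 2 E2F and DP partners were lower instead of 1, *E2F5* (0.0199), *LIN52* (0.0223), *CCND3* (0.00525), and *CDKN2D* (0.0444) gained a call by adjusted *p* value, and no call of a member changed. Without 1 library, 1 to 3 of these partners were lower, 1 to 2 kinase and cyclin genes were higher, and 0 to 1 G2/M targets were higher. The highest partner count and the lowest kinase and cyclin count came without treated CHLA-266 cells, and the G2/M count of 0 without untreated CHLA-266 cells, where edgeR gave *CDC25B* 0.65. MuvB genes called lower fell to 3 with upper-quartile scaling. Kinase and cyclin genes called higher fell to 1 with at least 10 counts in every library, and inhibitors called higher rose to 4 with that filter, with upper-quartile scaling, and in DESeq2 without the block.

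Signs reversed for *ARID4A* (0.25 upper quartile, 0.13 library totals, 0.082 with at least 10 counts), for *E2F6* (0.089 upper quartile, -0.67 to 0.082 with 1 library left out), and within BT-16 for *E2F3* (0.15 upper quartile, 0.042 library totals). With 1 library left out, *DYRK1A* ranged from -0.10 to 0.18 (-0.019 without untreated BT-16), *KDM5A* from -0.034 to 0.17, and *TFDP2* from -0.082 to 0.18 (-0.0065 without treated CHLA-266). A condition left with 1 library is assumed to vary like the other. Where no alternative's construction shows it, the cause was not tested. In treated CHLA-266 cells, *E2F8* was below the 95th percentile of the olfactory receptors and *E2F1* and *E2F7* were at 1.17 and 1.41 times that level, which limits their fold changes. The part of depth was not tested.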

Other observations

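Genes beside *FOXM1* gave a further view of the locus and were looked up after the values of *FOXM1* were seen. *RHNO1*, a gene of the DNA damage response on the opposite strand that overlaps *FOXM1* without shared exon bases, had 3609 and 2906 counts in untreated and 696 and 646 in treated BT-16 and CHLA-266 cells. It was thus at a log2 fold change of -2.02 (SE 0.19, adjusted *p* = 0.000128 in edgeR), against -4.72 for *FOXM1* and -0.05 for *ITFG2*.

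In RefSeq promoters, the E2F motif occurred in 14 of 19 G1/S targets (73.7%) and 2 of 20 G2/M targets, and in 5.50% of genes with a promoter listed. The cell cycle homology region letters TTTGAA or TTCGAA, searched on both strands, occurred in 14 of 20 G2/M targets, 2 of 19 G1/S targets, and 17.5% of genes with a promoter listed. None of these matches is a measurement of binding.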
